A study of Mus musculus with 45 samples.

Results

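The 35 genes described here encode the enzymes of glycolysis, the kinases that steer it, and classical targets of the oxygen-sensing transcription factor HIF-1. They were given as a list of symbols and looked up in the count table, where all 35 were among its 23420 genes and all 35 passed the filter on low counts that kept 14668 genes for testing. They comprise 2 hexokinases, 10 genes of the upper steps (Gpi1, Pfkl, Pfkm, Pfkp, Pfkfb2, Pfkfb3, Pfkfb4, Aldoa, Aldoc and Tpi1), 7 of the lower steps (Gapdh, Pgk1, Pgam1, Eno1, Eno2, Eno3 and Pkm), 2 lactate dehydrogenase genes, 3 pyruvate dehydrogenase kinases and 11 other hypoxia targets. RNA was sequenced from regulatory T cells (Tregs), the CD4 T cells that depend on the transcription factor Foxp3 and restrain immune responses, sorted from B16 tumours (a transplantable mouse melanoma) or from non-draining lymph nodes, and from WT effector T cells of tumours. The tumour Tregs and the lymph node Tregs each came in 4 kinds: N, HetNrp1def (genotype label Het_Nrp1-, from heterozygous mice), HetWT (genotype label Het_WT, from heterozygous mice) and WT. Het_Nrp1- is also the genotype label of the N samples, which were kept apart by their titles because the design text lists Nrp-1 deficient homozygous mice beside heterozygous ones. Nrp1 encodes neuropilin-1, a coreceptor on Tregs. The age and sex of the mice, the allele or Cre driver behind the Nrp1 deficiency, the days of tumour growth and any pooling of mice were not given in the sources used here.

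Each of the 9 groups had 5 libraries, made from 5000 cells sorted singly (replicates 2, 3 and 4) or doubly (ds1 and ds2). In 4 pairs of libraries within a heterozygous group, the counts were near identical (chi-square of 2.42 to 2.75 for each degree of freedom, against 68.4 or more in the other 86 pairs within a group), so each such pair was summed and counted as 1 sample. In the lymph node groups the pair was replicates 3 and 4, and in the tumour groups it was ds1 and replicate 4, a sum that is called replicate 4 and counted among the single-sorted samples although one of its libraries is labelled as double-sorted. That left 41 samples: 18 of tumour Tregs, 18 of lymph node Tregs and 5 of effector T cells, 4 for every heterozygous group and 5 elsewhere. Nothing states that the replicates were different animals, and the p-values below measure the spread among these samples alone, part of which may be technical. Library totals ran from 2945638 to 35787148 counts (median 10248080), and the 9 ds2 libraries were the shallowest (2945638 to 5408375). Levels are given as CPM, in which counts are divided by library size after TMM scaling. Foxp3 lay at 5.99 to 60.0 CPM (median 17.8) in tumour Tregs and 0 to 68.8 CPM (median 3.80) in lymph node Tregs, against 0 to 1.62 CPM in effector T cells, and the 5 Treg markers summed to 3549.6 to 9491 CPM, 1854 to 4918 CPM and 108 to 278 CPM in those cells. Nrp1 averaged between 154 and 171 CPM in the 4 tumour Treg groups, and in lymph node Tregs 211 CPM in N, 197 CPM in HetNrp1def, 583 CPM in HetWT and 360 CPM in WT. The targeted exons are not given, so these levels check no deletion.

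Glycolysis splits glucose into pyruvate in the cytosol. Hexokinase traps glucose in the cell, phosphofructokinase sets the main point of control, and lactate dehydrogenase converts pyruvate to lactate so that the pathway can run on without oxygen. When oxygen is short, HIF-1 escapes degradation, binds DNA at short motifs with the core ACGTG or GCGTG and raises transcription of most glycolytic genes together with genes for blood vessel growth, pH control and mitochondrial turnover. The same programme is switched on in activated T cells with oxygen present, while resting and many regulatory T cells lean more on oxidation of fatty acids and pyruvate.

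The promoters of the 4 members that passed the test in the most of the 4 genotypes' own tissue comparisons (Aldoa, Gapdh and Tpi1 in all 4, Pkm in 3) are shown as RefSeq sequence of GRCm38.p6, the patch release of mm10, from 250 bases before to 50 after the start of transcription. The Aldoa window is chr7:126799205-126799504 on the minus strand, the Gapdh window chr6:125165724-125166023 on the minus strand, the Tpi1 window chr6:124814109-124814408 on the minus strand and the Pkm window chr9:59656977-59657276 on the plus strand. Aldoa has 3 such windows and Pkm 2, and the one with most cores is shown. Letters in capitals mark the HIF core ACGTG or GCGTG, searched on both strands, so that a core on the opposite strand reads CACGT or CACGC.
Aldoa: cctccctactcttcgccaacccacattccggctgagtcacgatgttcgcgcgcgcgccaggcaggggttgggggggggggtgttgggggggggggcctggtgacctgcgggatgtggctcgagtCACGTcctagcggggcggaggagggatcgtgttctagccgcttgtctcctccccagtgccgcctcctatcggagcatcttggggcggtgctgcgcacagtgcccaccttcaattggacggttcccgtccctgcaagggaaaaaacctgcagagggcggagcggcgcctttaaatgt
Gapdh: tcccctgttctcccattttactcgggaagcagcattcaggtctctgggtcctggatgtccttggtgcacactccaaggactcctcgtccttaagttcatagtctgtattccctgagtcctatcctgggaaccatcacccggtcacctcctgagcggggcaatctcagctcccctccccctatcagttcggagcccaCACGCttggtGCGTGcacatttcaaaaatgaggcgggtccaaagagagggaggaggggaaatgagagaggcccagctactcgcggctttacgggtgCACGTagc
Tpi1: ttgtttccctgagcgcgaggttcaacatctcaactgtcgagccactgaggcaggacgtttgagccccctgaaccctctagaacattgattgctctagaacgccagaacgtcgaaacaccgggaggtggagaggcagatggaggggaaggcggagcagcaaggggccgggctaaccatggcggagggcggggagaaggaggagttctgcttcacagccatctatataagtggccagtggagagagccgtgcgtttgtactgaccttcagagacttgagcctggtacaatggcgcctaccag
Pkm: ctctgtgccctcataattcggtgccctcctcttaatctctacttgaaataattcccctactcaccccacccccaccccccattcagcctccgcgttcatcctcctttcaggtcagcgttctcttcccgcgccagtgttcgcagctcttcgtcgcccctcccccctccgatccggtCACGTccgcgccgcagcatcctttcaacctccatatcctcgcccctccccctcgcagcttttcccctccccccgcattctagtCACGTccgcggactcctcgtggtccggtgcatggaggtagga
The Aldoa window held 1 core, the Gapdh window 3 and the Pkm window 2, and these letters were not in the Tpi1 window. Windows were available for 32 of the 35 members (none for Bnip3l, Ero1l and Ndrg1), and 29 of those 32 genes (90.62%) had a core in at least 1 window, against 12628 of 27025 genes in the whole table (46.73%). Counted by window, the core stood in 19 of 24 windows of the members that were higher in tumour Tregs (79.17%), in 20 of 25 windows of the other members (80%) and in 14380 of all 32851 windows (43.77%). The full E-box CACGTG, which includes ACGTG, was in 6 of 49 member windows (12.24%) and in 2349 of all windows (7.15%). These matches describe the sequence and show no binding.

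The tissue comparison asks how Tregs in the tumour differed from Tregs in a lymph node away from it. Averaged over the 4 genotypes, 19 of the 35 genes were higher and 2 were lower in tumour Tregs at an adjusted p below 0.05 (edgeR's quasi-likelihood test with Benjamini-Hochberg adjustment over all genes tested). Of all 14668 genes, 5.84% were higher and 5.37% lower in this comparison. The median log2 fold change was 1.43 over the 35 members, 27 of which lay above 0, and -0.08 over all genes tested. The genes that rose included an enzyme at every step from glucose to lactate except enolase, and the 2 that fell, Eno3 and Ldhb, are isozymes of steps in the same pathway. In bulk RNA, fewer cells of a type and less RNA per cell cannot be told apart, so these levels are those of the whole sorted sample.

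The mean log2 CPM over the 35 genes lay between 4.35 and 5.85 in the tumour Treg samples (mean 5.12 ± 0.46, SD, n = 18) and between 3.22 and 4.30 in the lymph node Treg samples (3.88 ± 0.34, SD, n = 18). The lowest tumour sample lay just above the highest lymph node sample. The 18 enzymes from hexokinase to lactate dehydrogenase summed to 7942 ± 1150 CPM in tumour Tregs (5253 to 9552), against 2894 ± 649 CPM in lymph node Tregs (1949.6 to 4212; SD, n = 18 each). As a share of the TMM-scaled library size, which is not the share of raw counts, they averaged 0.794% in tumour Tregs, 0.289% in lymph node Tregs and 0.230% in effector T cells. Effector T cells of the tumour lay with the lymph node Tregs, at a mean log2 CPM of 3.82 ± 0.28 (SD, n = 5).

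**Figure D1:**
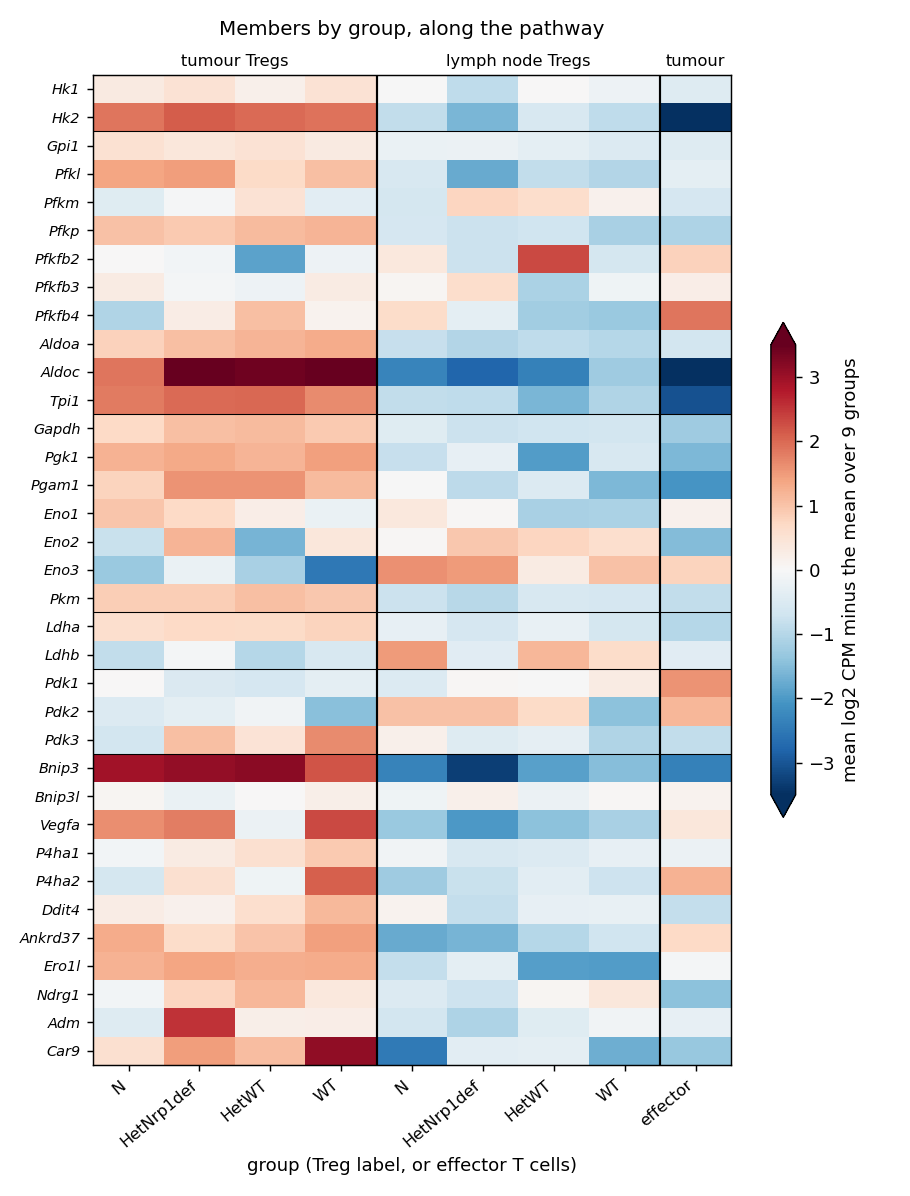
Mean log2 CPM of each of the 35 genes in each of the 9 groups, minus the gene's mean over the 9 groups, with genes in pathway order from the hexokinases down to the other hypoxia targets. Columns are groups (4 tumour Treg groups, 4 lymph node Treg groups, effector T cells of the tumour) and colour is the log2 difference. Rows from Aldoa to Pkm are mostly high in the tumour Treg columns, while Eno3 and Ldhb run the other way.

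Glucose entry showed its change at Hk2, the hexokinase that is induced in proliferating cells and binds mitochondria. Hk2 (chr6:82725025-82774454 in mm10, GENCODE vM21) ran from 6.03 to 96.9 CPM (median 37.1) in tumour Tregs, against 0.169 to 23.7 CPM (median 5.58) in lymph node Tregs. Its log2 fold change was 2.64 (SE 0.53, adjusted p = 3.2e-04 by edgeR), and the ranges overlapped because a few tumour samples were as low as the lymph node ones. Hk1, the constitutive hexokinase, had a median of 64.3 CPM in tumour Tregs and 42.4 CPM in lymph node Tregs and did not pass the test (log2 fold change 0.44). Per kilobase of exon, which allows levels of different genes to be compared, Hk2 made up 34.3 ± 16.2% of the 2 hexokinases' RNA in tumour Tregs, against 13.7 ± 16.2% in lymph node Tregs (SD, n = 18 each).

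Of the 10 genes of the upper steps, 6 rose. Aldoa, the main aldolase, which splits fructose bisphosphate, ran from 1169 to 2561 CPM (median 1845) in tumour Tregs and from 282 to 794 CPM (median 442) in lymph node Tregs. No tumour sample overlapped a lymph node sample, and the log2 fold change was 1.99 (SE 0.15, adjusted p = 3.7e-15 by edgeR). Pfkp (chr13:6579768-6648777), the platelet-type phosphofructokinase, was as cleanly separated, at 205 to 562 CPM (median 283) in tumour Tregs and 16.6 to 127 CPM (median 97.7) in lymph node Tregs. Its log2 fold change was 1.78 (SE 0.24, adjusted p = 2.1e-07 by edgeR). Tpi1, which interconverts the 2 products of aldolase, had the largest change among the abundant enzymes, at 175 to 911 CPM (median 555) in tumour Tregs against 14.1 to 315 CPM (median 62.0) in lymph node Tregs. The log2 fold change of Tpi1 was 2.77 (SE 0.28, adjusted p = 9.2e-11 by edgeR), and the tissues overlapped through 1 lymph node sample (HetNrp1def ds1, 315 CPM) and the lowest tumour samples (WT ds1, 175 CPM, and N replicate 4, 304 CPM).

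Pfkl, the liver-type phosphofructokinase, had a median of 77.5 CPM in tumour Tregs and 20.2 CPM in lymph node Tregs (log2 fold change 1.91, SE 0.36, adjusted p = 1.4e-04 by edgeR). Aldoc, a second aldolase best known from brain, had a median of 52.8 CPM in tumour Tregs and 0.592 CPM in lymph node Tregs (log2 fold change 4.34, SE 0.72, adjusted p = 2.0e-05 by edgeR). Although its fold change exceeded that of Aldoa, Aldoc made up 1.69% of the aldolase RNA per kilobase in tumour Tregs and 0.493% in lymph node Tregs. Gpi1, the isomerase between the hexokinase and phosphofructokinase steps, rose least, with medians of 469 CPM in tumour Tregs and 257 CPM in lymph node Tregs (log2 fold change 0.72, SE 0.18, adjusted p = 0.0047 by edgeR). The muscle-type Pfkm did not pass the test (medians 6.81 CPM in tumour Tregs and 9.18 CPM in lymph node Tregs). Nor did the 3 bifunctional kinases that set the level of the phosphofructokinase activator fructose 2,6-bisphosphate: Pfkfb2 (log2 fold change -1.40), Pfkfb3 (0.13) and Pfkfb4 (0.21).

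**Figure D2:**
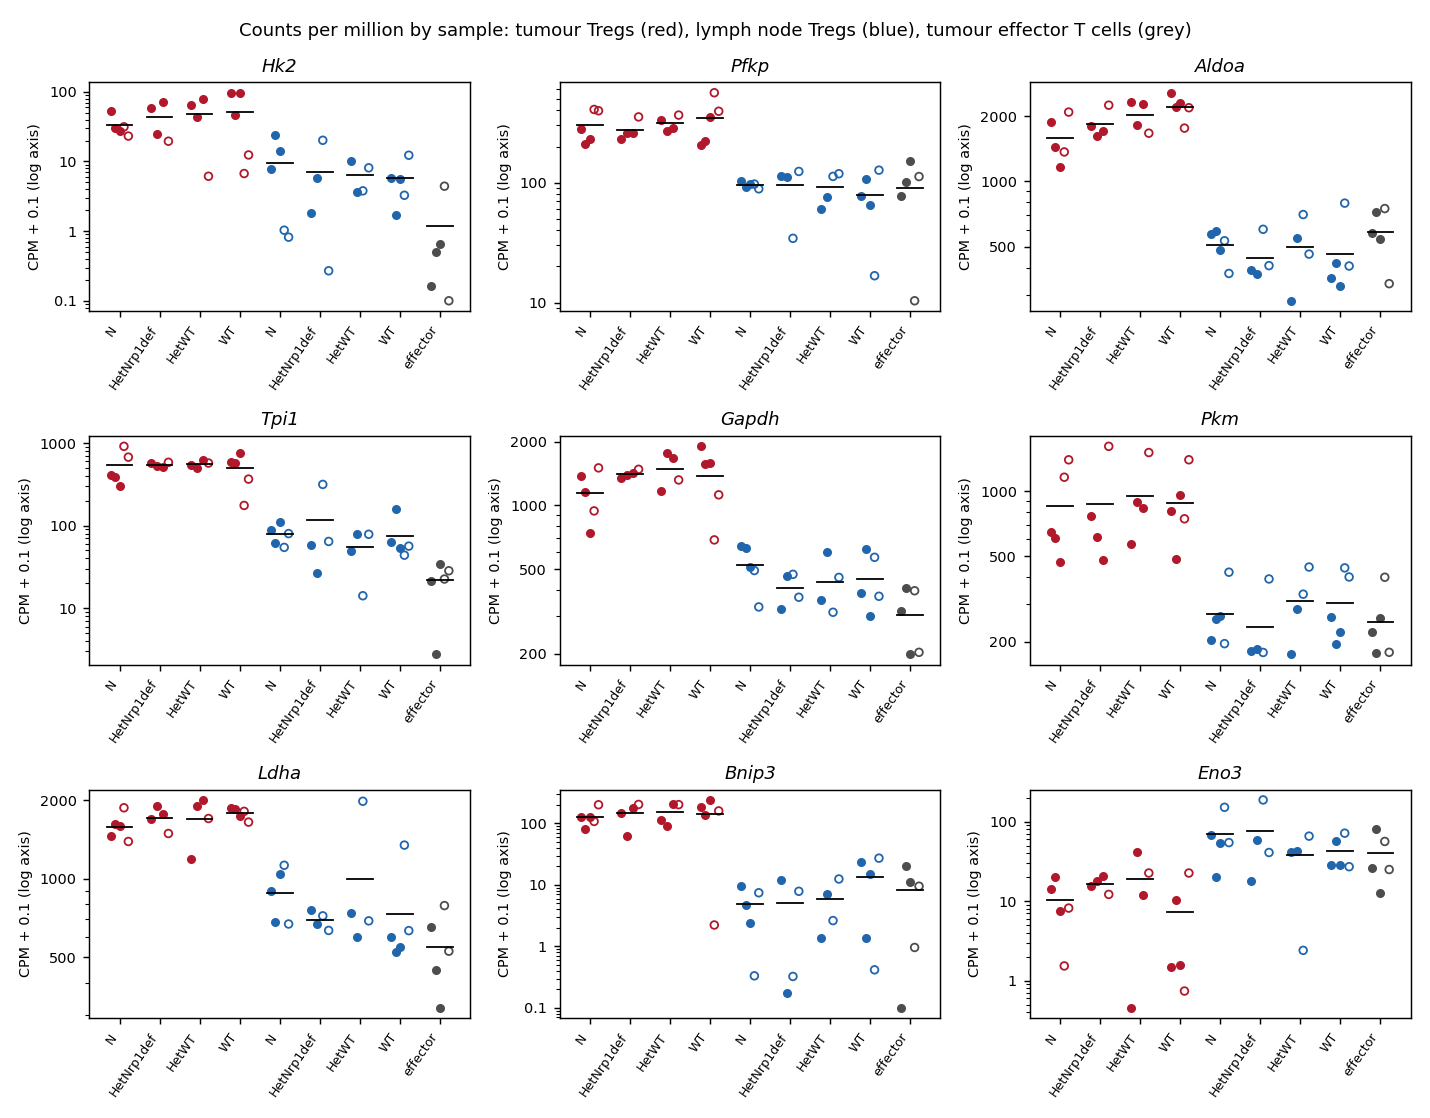
CPM plus 0.1, on a log axis, of 9 genes in each of the 41 samples: Hk2, Pfkp, Aldoa, Tpi1, Gapdh, Pkm, Ldha, Bnip3 and Eno3. Red points are tumour Tregs, blue points lymph node Tregs and grey points effector T cells; filled points are single-sorted samples, open points double-sorted ones (ds1, ds2), and lines are group means. All tumour Treg points of Aldoa (1169 CPM or more) lie above all lymph node points (794 CPM or less), and Bnip3 has 1 tumour point at 2.13 CPM.

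Of the 7 genes of the lower steps, 4 rose and 1 fell. Gapdh, which couples oxidation of the triose to NADH, ran from 688 to 1900.2 CPM (median 1382) in tumour Tregs and from 301 to 645 CPM (median 461) in lymph node Tregs. The groups did not overlap, and the log2 fold change was 1.57 (SE 0.16, adjusted p = 5.3e-11 by edgeR). Pkm, whose product pyruvate kinase makes pyruvate and ATP, lay at 471 to 1619.8 CPM (median 789.9) in tumour Tregs and 175 to 445 CPM (median 259) in lymph node Tregs, again without overlap (log2 fold change 1.68, SE 0.20, adjusted p = 5.8e-09 by edgeR). The counts are per gene, so the M1 and M2 splice forms of Pkm were not separated. Aldoa, Pfkp, Gapdh and Pkm were the 4 of 35 members whose 18 tumour samples all lay above all 18 lymph node samples, which 0.28% of all genes tested did. No member had all its tumour samples below all lymph node samples, as 0.0886% of all genes did.

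Pgk1, which makes the first ATP of the pathway's second stage, had a median of 448 CPM in tumour Tregs and 109 CPM in lymph node Tregs (log2 fold change 1.77, SE 0.29, adjusted p = 1.4e-05 by edgeR). Pgam1, the next enzyme, was scarcer, with medians of 33.9 CPM in tumour Tregs and 10.5 CPM in lymph node Tregs (log2 fold change 1.72, SE 0.45, adjusted p = 0.0066 by edgeR). Eno3 (chr11:70657202-70662513), the enolase best known from muscle, went the other way: it lay at 0.353 to 41.9 CPM (median 11.9) in tumour Tregs and 2.30 to 187 CPM (median 48.6) in lymph node Tregs. Its log2 fold change was -2.13 (SE 0.46, adjusted p = 8.7e-04 by edgeR).

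Eno1, the enolase that most cells use, cannot be read as the cell's level from this table. Its symbol was at 0 to 1.86 CPM in the tumour Treg samples other than ds2 and at 22.5 to 26.1 CPM in the 4 ds2 samples of tumour Tregs, and in lymph node Tregs at 0 to 2.47 CPM in the samples other than ds2 and 6.80 to 9.82 CPM in the 4 ds2 samples. Gm5506, a near-identical gene that RefSeq lists as Eno1b and that was picked out after its values were seen, had the same pattern, at 17.0 to 21.4 CPM in the ds2 samples of tumour Tregs and at least 6.10 CPM in those of lymph node Tregs, and at most 2.65 CPM in the rest. How reads shared by 2 genes were counted is not given in the sources used here. Within ds2 the 4 tumour values of Eno1 all lay above the 4 lymph node values, but over all samples Eno1 did not pass the test (log2 fold change 1.43). The neuronal enolase Eno2 did not pass either (medians 1.41 CPM in tumour Tregs and 2.33 CPM in lymph node Tregs). Eno3's share of enolase RNA is therefore uncertain and is not compared.

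The 2 lactate dehydrogenase genes parted. Ldha (chr7:46841475-46855627), whose subunit favours making lactate, ran from 1191 to 2003 CPM (median 1716) in tumour Tregs and from 526 to 1980.4 CPM (median 687) in lymph node Tregs (log2 fold change 1.05, SE 0.15, adjusted p = 1.1e-06 by edgeR). Its tumour values were close together, and the overlap came from high ds1 samples of the lymph node, at 1980.4 CPM in HetWT and 1345 CPM in WT. Ldhb, whose subunit favours pyruvate, lay at a median of 35.6 CPM in tumour Tregs and 85.6 CPM in lymph node Tregs (log2 fold change -1.21, SE 0.38, adjusted p = 0.030 by edgeR). Per kilobase, Ldha made up 97.0 ± 1.74% of the pair in tumour Tregs and 86.8 ± 5.31% in lymph node Tregs (SD, n = 18 each). The call of Ldhb was lost in 24 of 46 alternative settings.

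The pyruvate dehydrogenase kinases, which keep pyruvate out of the mitochondrial citrate cycle, did not pass the test between tissues in any of the 3 genes. Pdk1, a HIF-1 target in many cells, had medians of 91.8 CPM in tumour Tregs and 133 CPM in lymph node Tregs (log2 fold change -0.48, adjusted p = 0.27 by edgeR). Pdk2 and Pdk3 had log2 fold changes of -0.40 and 0.85. The Pdk1 share of the 3 kinases per kilobase averaged 37.7% in tumour Tregs and 56.5% in lymph node Tregs.

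**Figure D3:**
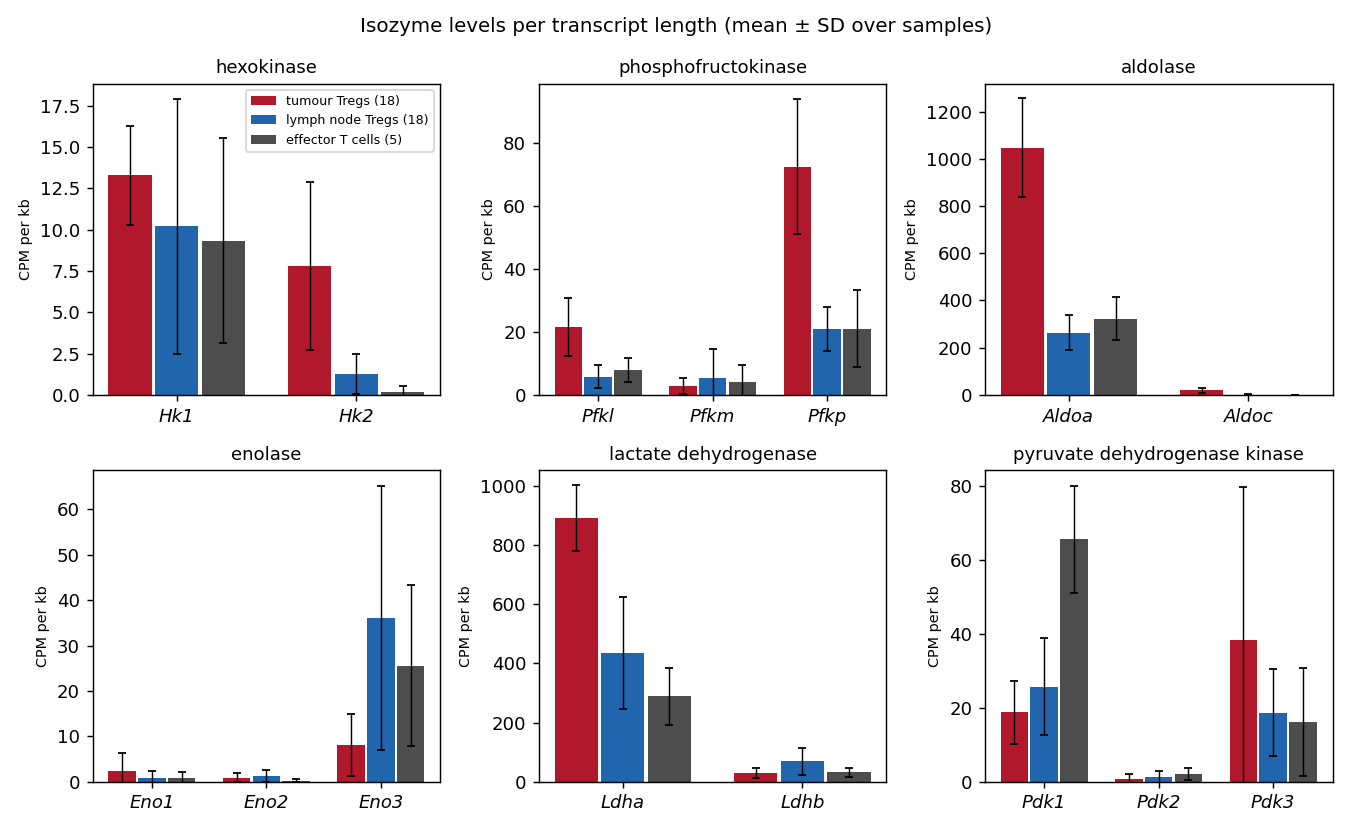
Mean CPM per kilobase of exon ± SD of the members of 6 enzyme families (hexokinase, phosphofructokinase, aldolase, enolase, lactate dehydrogenase, pyruvate dehydrogenase kinase) in tumour Tregs (n = 18), lymph node Tregs (n = 18) and effector T cells (n = 5). Aldoa and Ldha exceed their family partners in all 3 kinds of cells, and Hk2 reaches 7.78 in tumour Tregs against 1.27 in lymph node Tregs.

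Of the 11 other hypoxia targets, 7 rose and none fell. Bnip3 (chr7:138890836-138909519), which tags mitochondria for removal, ran from 2.13 to 241 CPM (median 142) in tumour Tregs and from 0.0728 to 27.2 CPM (median 5.80) in lymph node Tregs (log2 fold change 4.44, SE 0.65, adjusted p = 4.8e-06 by edgeR). The overlap rested on 1 tumour sample, WT ds1 at 2.13 CPM, the next lowest being at 63.3 CPM. Its relative Bnip3l, with the same role in mitochondrial turnover, stood at medians of 228 CPM in tumour Tregs and 221 CPM in lymph node Tregs (log2 fold change -0.06) and did not pass the test. Ero1l, the oxidase that forms disulphide bonds in the endoplasmic reticulum, had a median of 122 CPM in tumour Tregs and 28.9 CPM in lymph node Tregs (log2 fold change 2.26, SE 0.40, adjusted p = 5.0e-05 by edgeR).

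Vegfa, the growth factor for blood vessels, and Car9, a carbonic anhydrase, were scarce and uneven. Vegfa lay at 0 to 25.7 CPM (median 2.54) in tumour Tregs and 0 to 1.38 CPM (median 0.101) in lymph node Tregs (log2 fold change 4.62, SE 0.97, adjusted p = 5.6e-04 by edgeR). Car9 lay at 0 to 85.6 CPM (median 3.51) in tumour Tregs and 0 to 8.25 CPM (median 0.102) in lymph node Tregs (log2 fold change 5.15, SE 1.09, adjusted p = 7.5e-04 by edgeR). The 5 highest values of Car9 were those of replicates 2, 3 and 4 of WT and replicate 4 of both heterozygous groups.

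Adm, the vessel-dilating peptide adrenomedullin, had 337 counts over all tumour Treg samples and 20 over all lymph node Treg samples, and passed the test (adjusted p = 0.046 by edgeR), a call kept in 29 of 45 alternative settings. In HetNrp1def its 4 lymph node samples held 0 counts against 247 in the 4 tumour samples. For these summed counts the level was at least 66.7-fold higher in the tumour (floor of 3 counts over the group). That bound covers counting error and not the spread among samples. Tumour replicate 2 of HetNrp1def was also at 0 CPM, and Adm was not called in that genotype's own comparison. P4ha1, a prolyl hydroxylase of collagen, rose by 0.74 (SE 0.24, adjusted p = 0.032 by edgeR; call kept in 35 of 46 settings) and Ankrd37, an ankyrin repeat protein, by 1.72 (SE 0.50, adjusted p = 0.016 by edgeR) on the log2 scale. P4ha2 (log2 fold change 2.09), the mTOR inhibitor Ddit4 (0.30) and Ndrg1 (0.56) did not pass the test.

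**Figure D4:**
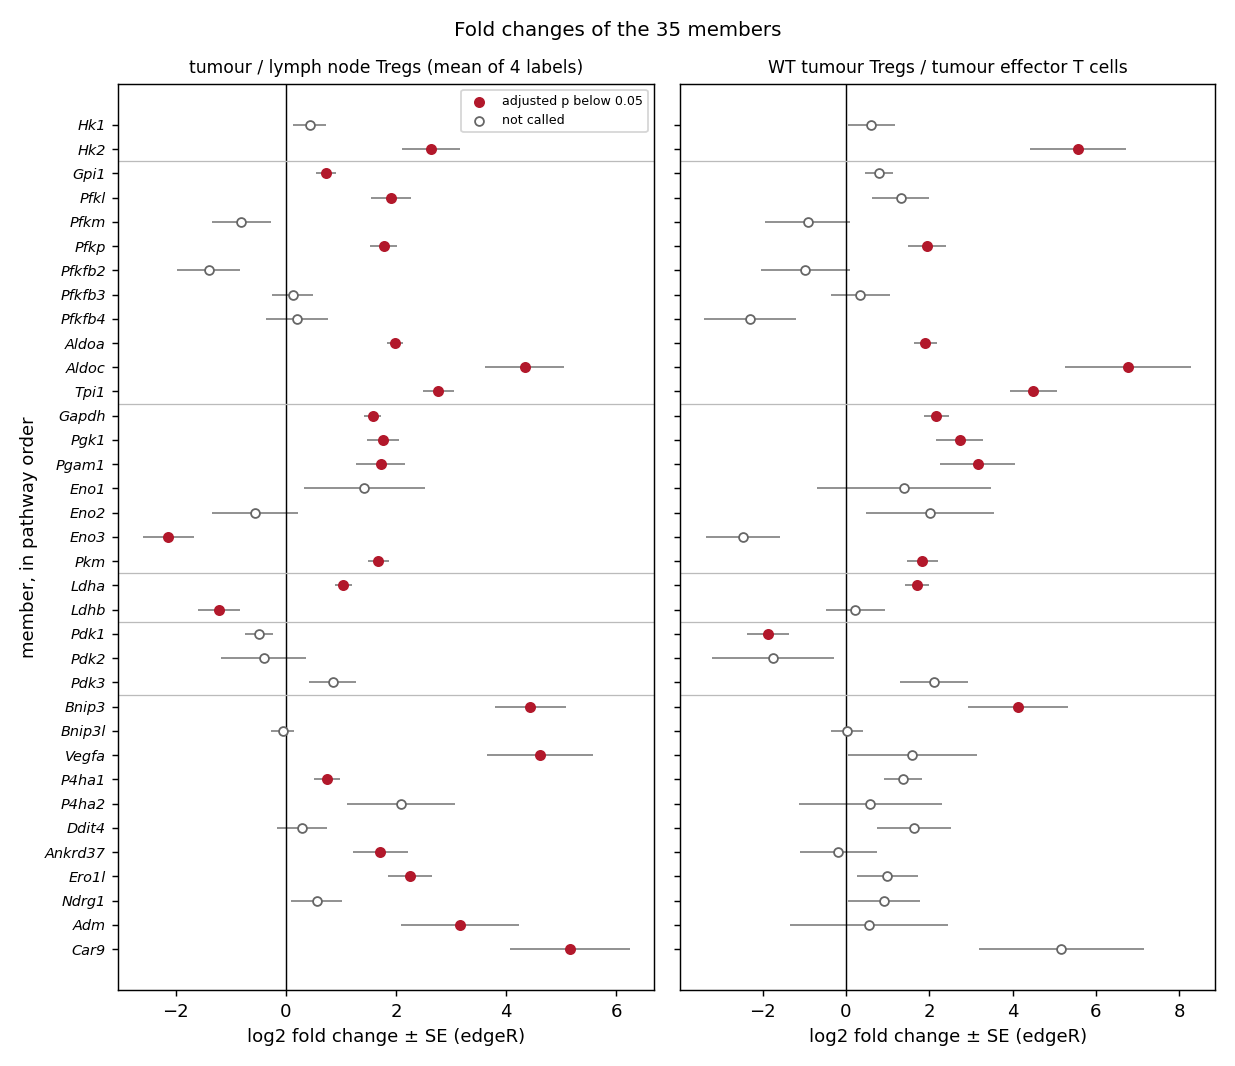
Log2 fold change ± SE of each of the 35 genes for tumour over lymph node Tregs averaged over the 4 genotypes (left) and WT tumour Tregs over tumour effector T cells (right), in pathway order; filled points have an adjusted p below 0.05. On the left 19 genes are called above 0 and 2 (Eno3, Ldhb) below; on the right 11 are called above and 1 (Pdk1) below.

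RNA of the tumour itself was also found in tumour Treg samples, and some of these genes, but not all, had higher medians where it was high. Summed over 13 melanoma markers, levels ran from 8.02 to 3873 CPM (median 49.4) in tumour Tregs, 2.85 to 73.3 CPM (median 22.4) in lymph node Tregs and 4.19 to 85.5 CPM in effector T cells, and 11 of 12 markers tested were higher in tumour Tregs. No marker was at 0 in all samples of a tissue. In 8 tumour Treg samples the sum exceeded the lymph node maximum: replicates 2, 3 and 4 of WT, ds2 of N, and replicates 3 and 4 of both heterozygous groups. Of these, N ds2 alone is counted as double-sorted. The other tumour Treg samples include ds1 and ds2 of WT, ds1 of N and ds2 of both heterozygous groups. Melanoma markers and kind of sorting therefore partly went together in this split, and their parts were not tested. In those 8 samples the 18 enzymes summed to 7375 to 9552 CPM (median 8774), Bnip3 lay at 63.3 to 241 CPM (median 178), Vegfa at 0.165 to 25.7 CPM and Car9 at 5.73 to 85.6 CPM (median 28.8). In the 10 samples within the lymph node range the enzymes summed to 5253 to 9341 CPM (median 7382), Bnip3 lay at 2.13 to 204 CPM (median 127), Vegfa at 0 to 6.48 CPM and Car9 at 0 to 8.39 CPM (median 0.118). The enzyme sum lay above the 4212 CPM of the highest lymph node sample in each of those 10 samples. Their median of Car9 was close to the 0.102 CPM of lymph node Tregs.

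With the 8 samples left out, a choice made after seeing the data, 11 members were called higher and 1 lower, and of all genes tested 2% were higher and 2.03% lower. Pfkl, Pfkp, Aldoa (log2 fold change 1.94), Aldoc, Tpi1 (2.53), Gapdh (1.29), Pgk1, Pkm (1.80), Ldha (0.95), Bnip3 (4.21) and Ero1l stayed called higher and Eno3 lower. Of the lost calls, the log2 fold change was 0.69 for Gpi1, 1.496 for Pgam1, 0.86 for P4ha1, 1.62 for Ankrd37 and -1.72 for Ldhb, against 0.72, 1.72, 0.74, 1.72 and -1.21 with all samples. It was 1.90 for Hk2 (adjusted p = 0.11 by edgeR), 1.98 for Vegfa (adjusted p = 0.38), 2.16 for Adm and 0.48 for Car9 (adjusted p = 0.895), each below its value with all samples, which was 3.16 for Adm. The mean log2 CPM of the 11 other hypoxia targets lay at 3.48 to 5.61 in the 8 samples and 2.70 to 3.79 in the 10 samples, against 1.60 to 2.64 in lymph node Tregs.

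**Figure D5:**
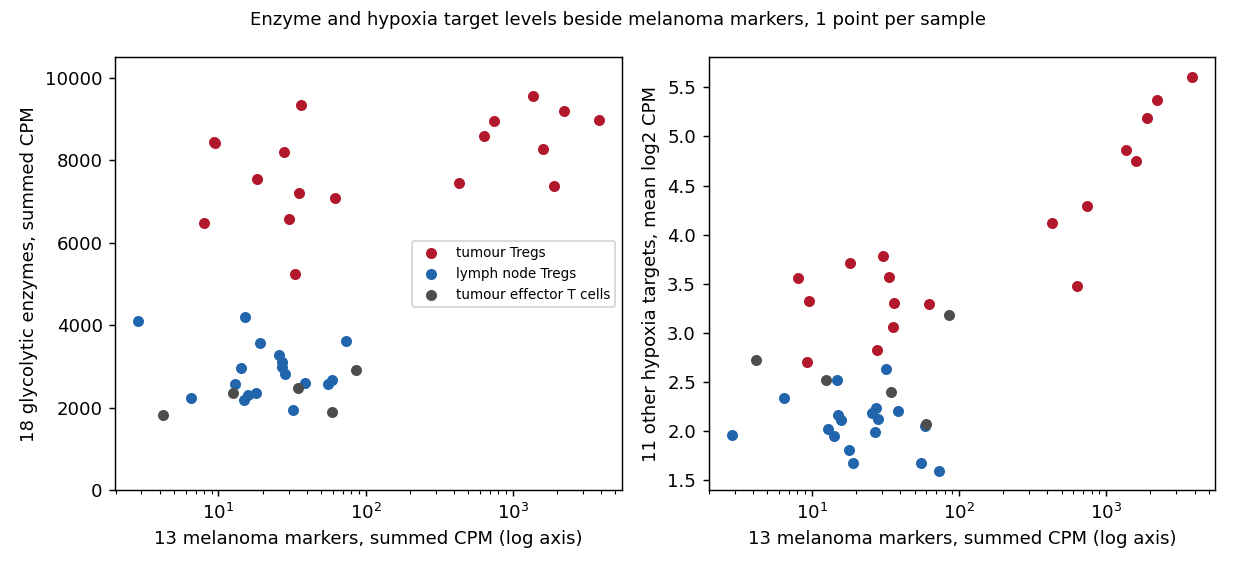
Summed CPM of 13 melanoma markers (x axis, log scale) in each sample against the summed CPM of the 18 enzymes (left) and the mean log2 CPM of the 11 other hypoxia targets (right), for tumour Tregs, lymph node Tregs and effector T cells. Tumour Treg samples with markers at lymph node levels have enzyme sums of 5253 CPM or more. The highest lymph node sample has 4212 CPM. The hypoxia targets reach 5.61 in the samples with most markers.

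The tissues were also compared within each kind of sorting. In single-sorted samples alone (12 tumour and 10 lymph node samples) 18 members were called higher and 2 lower, where 7.16% of all genes were higher and 5.67% lower. In double-sorted samples alone (6 tumour and 8 lymph node samples) 4 were called higher and none lower, where 0.414% of all genes were higher and 0.124% lower. The 4 were Aldoa (log2 fold change 1.82, adjusted p = 0.0056 by edgeR), Tpi1 (2.78, adjusted p = 0.00107), Pkm (1.94, adjusted p = 0.0058) and Bnip3 (4.56, adjusted p = 0.0063). Most of the members that lost their call there had log2 fold changes near those over all samples or above them, such as Pfkp (2.12), Pfkl (2.07), Pgam1 (1.97), Ero1l (2.52), Ankrd37 (2.25) and Pgk1 (1.73), while Hk2 had 1.57 and Ldha 0.78. In the double-sorted samples Vegfa and Car9 had log2 fold changes of -0.64 and -0.81 without passing the test. Of the other cell types' markers, 4 of 6 B cell genes were lower in tumour Tregs (summed 3.85 to 65.6 CPM, against 1.90 to 655 CPM in lymph node Tregs). Among macrophage markers 2 of 10 were higher (Fcgr3 and C1qc; summed 3.18 to 198 CPM in tumour Tregs, 4.32 to 222 CPM in lymph node Tregs), as were 2 of 7 dendritic cell markers (Zbtb46 and Xcr1) and 2 of 5 Treg markers (Ctla4 and Tnfrsf18). The sum of the 7 dendritic cell markers went the other way by median. It was 189 to 867 CPM (median 433) in tumour Tregs and 198 to 1835 CPM (median 591) in lymph node Tregs. Among endothelial markers 1 of 4 tested was lower (Pecam1), and none of 3 T cell, 2 CD8 T cell, 3 NK cell, 5 fibroblast or 8 cycling genes was called. Haemoglobin genes had no count in any sample. The part of melanoma RNA beyond these values, of sorting and of these cell types in the results was not tested.

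The tissue change was also tested within each genotype, with fewer samples a side. These 4 comparisons use the same samples as the average above and are no further evidence for it. In N Tregs 4 members were higher (0.566% of all genes were), in HetNrp1def Tregs 5 (0.348% of all genes), in HetWT Tregs 3 (0.164% of all genes) and in WT Tregs 6 (0.511% of all genes), and no member was lower (0.225%, 0.307%, 0.075% and 0.361% of all genes were, in the same order). The members' median log2 fold change was 1.13 in N, 1.30 in HetNrp1def, 1.33 in HetWT and 1.48 in WT, against 0.06, -0.10, -0.17 and 0.09 over all genes, and in HetNrp1def it stayed at 1.30 with Adm set at its bound. With the tumour Treg samples of high melanoma markers left out, 2 members were called higher in N, 2 in HetNrp1def, 2 in HetWT and 1 in WT. Of all genes, 0.16%, 0.0833%, 0.0512% and 0.0768% were higher in that fit, in the same order. It left ds1 and ds2 alone as WT tumour samples, and replicate 2 and ds2 alone in HetNrp1def and HetWT. DESeq2 called 12 members in either direction in N, 9 in HetNrp1def, 5 in HetWT and 17 in WT, among 395, 842, 279 and 507 genes of all. Limma on the authors' log2 values kept the edgeR call of 0 of 4 members in N, 0 of 5 in HetNrp1def, 0 of 3 in HetWT and 0 of 6 in WT. Leaving out 1 sample brought the count down to 2 in N (without lymph node replicate 2 or tumour ds2) and to 3 in HetNrp1def (without lymph node ds1).

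Aldoa, Tpi1 and Gapdh were called in all 4 genotypes. Aldoa averaged 1587 ± 379 CPM in tumour Tregs and 511 ± 85.7 CPM in lymph node Tregs of N (log2 fold change 1.63, adjusted p = 2.7e-04 by edgeR; SD, n = 5 each). In HetNrp1def it averaged 1844 ± 277 CPM in tumour Tregs and 444 ± 106 CPM in lymph node Tregs (2.05, adjusted p = 6.5e-05 by edgeR; SD, n = 4 each). HetWT Tregs had 2018 ± 324 CPM in the tumour and 499 ± 176 CPM in the lymph node (2.01, adjusted p = 1.7e-04 by edgeR; SD, n = 4 each), and WT Tregs 2199.5 ± 288 CPM in the tumour and 462 ± 189.6 CPM in the lymph node (2.25, adjusted p = 5.6e-07 by edgeR; SD, n = 5 each). In every genotype the tumour and lymph node samples of Aldoa were apart.

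Tpi1 had log2 fold changes of 2.76 in N (adjusted p = 0.0015), 2.24 in HetNrp1def (0.045), 3.34 in HetWT (0.0019) and 2.72 in WT (0.0014, all by edgeR), and its call in HetNrp1def held in 8 of 18 alternative settings. Gapdh had 1.13 in N (adjusted p = 0.042), 1.79 in HetNrp1def (0.0017), 1.78 in HetWT (0.0027) and 1.60 in WT (8.7e-04, all by edgeR), and its call in N held in 5 of 20 alternative settings. Pkm was called in N (1.68, adjusted p = 0.010), HetNrp1def (1.89, 0.013) and WT (1.53, 0.022, all by edgeR), and Ldha in HetNrp1def (1.30, adjusted p = 0.037) and WT (1.29, 0.012, both by edgeR). Pfkp was called in WT alone (2.14, adjusted p = 0.0057 by edgeR), where it lay at 205, 224, 351, 562 and 394 CPM in tumour Tregs against 77.8, 108, 65.1, 16.6 and 127 CPM in lymph node Tregs (replicates 2, 3, 4, ds1 and ds2). Pfkp did not overlap between tissues in the other 3 genotypes either.

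By overlap of samples alone, 10 members were apart upwards and 2 downwards in N (2.37% and 1.57% of all genes), 14 and 0 in HetNrp1def (4.32% and 2.67%), 11 and 1 in HetWT (2.56% and 2.11%) and 9 and 1 in WT (1.88% and 1.25%). Pfkp, Aldoa, Tpi1, Gapdh, Pgk1 and Pkm were apart upwards in all 4 genotypes. Eno3 was apart downwards in N and in WT, Ldhb in N and Pfkfb2 in HetWT.

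Whether Nrp1 status changed the tissue response was asked by the difference of 2 tissue changes. By edgeR no member was called for N minus WT or for HetNrp1def minus HetWT, nor was any gene (0% of all genes), while DESeq2 called 0 members but 10 genes in the first and 28 in the second. The standard errors of the members' log2 differences had medians of 1.13 in the first and 1.30 in the second. The absence of calls therefore does not show equal tissue responses. An unadjusted p below 0.05 was found for 1 member in the first (3.1% of all genes) and 2 in the second (3.89% of all genes). Those members were P4ha1 in N minus WT (log2 difference -1.62, unadjusted p = 0.014) and Pfkfb2 and Adm in HetNrp1def minus HetWT (5.15 for Pfkfb2, unadjusted p = 0.0055, by edgeR), and all had an adjusted p of 1.

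Within a tissue, N against WT, HetNrp1def against HetWT, HetNrp1def against WT and HetWT against WT gave no called member and no called gene in tumour Tregs or in lymph node Tregs (0% of all genes in each of the 8 comparisons, by edgeR). An unadjusted p below 0.05 was found in tumour Tregs for 2 members in N against WT (2.56% of all genes), 1 in HetNrp1def against HetWT (1.98%), 0 in HetNrp1def against WT (2.32%) and 0 in HetWT against WT (2.52%), and in lymph node Tregs for 1 member in each of the same comparisons (4.2%, 6.49%, 6.14% and 4.08% of all genes). DESeq2 called 0 members in each of these 8 comparisons but 3 to 19 genes in the 4 of tumour Tregs and 19 to 315 genes in the 4 of lymph node Tregs, with 315 for HetNrp1def against HetWT and 241 for HetNrp1def against WT. Limma on the authors' log2 values called 0 members and 0 genes in the 8 comparisons and in the 2 differences of tissue changes. In tumour Tregs the 18 enzymes summed to 7266 ± 1492 CPM in N (n = 5), 7932 ± 943 CPM in HetNrp1def (n = 4), 8271 ± 882 CPM in HetWT (n = 4) and 8362 ± 1113 CPM in WT (SD, n = 5). N had the lowest mean, and its samples overlapped those of the other 3 groups. For N against WT in tumour Tregs, 7 of 35 members lay above 0 by edgeR (median log2 fold change -0.32, against -0.08 over all genes). Of the 11 other hypoxia targets 0 did. By limma on the authors' log2 values 19 of 32 members lay above 0 (median 0.32). Melanoma markers summed to a median of 33.4 CPM in N and 1367 CPM in WT tumour Tregs, and their part was not tested. The standard errors of the members' log2 fold changes in these 8 comparisons had medians of 0.82 to 0.92, with 4 or 5 samples a group.

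Inside the tumour, WT Tregs were compared with WT effector T cells (Teff), the source name of which reads Teffector. Of the 35 members 11 were higher in Tregs and 1 was lower, where 4.1% of all genes were higher and 1.61% lower. The members' median log2 fold change was 1.37, against 0.07 over all genes. The 5 WT tumour Treg samples are also those of the WT tissue comparison, so the 2 results share them. Cycling genes moved with this comparison too: 5 of 8 (Cdk1, Top2a, Rrm2, Ccnb1 and Mki67) were higher in WT tumour Tregs, and their sum ran from 1044 to 1866 CPM over all tumour Tregs against 138 to 593 CPM in effector T cells. The same 5 genes were higher in WT lymph node Tregs than in effector T cells as well. Of the other markers, 5 of 12 melanoma genes (Dct, Mlana, Tyrp1, Trpm1 and Tyr), 2 of 7 dendritic cell genes (Zbtb46 and Xcr1) and all 5 Treg genes were higher in WT tumour Tregs and 1 of 4 endothelial genes (Pecam1) was lower. The part of cycling and of these cell types in the result was not tested. With the 8 tumour Treg samples of high melanoma markers left out, 3 of them WT, 5 members were called higher, where 1.58% of all genes were. That fit left ds1 and ds2, both double-sorted, as the only WT tumour Treg samples against the 5 effector samples.

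Values in replicate order 2, 3, 4, ds1 and ds2 show how far the cells stood apart. Hk2 lay at 95.1, 46.0, 96.9, 6.61 and 12.3 CPM in WT tumour Tregs, against 0.0619, 0.403, 0.547, 4.32 and 0 CPM in Teff (log2 fold change 5.57, SE 1.15, adjusted p = 7.0e-04 by edgeR). Tpi1 lay at 591, 572, 762, 175 and 366 CPM in WT tumour Tregs, against 21.1, 2.66, 34.6, 22.5 and 28.3 CPM in Teff (log2 fold change 4.50, adjusted p = 5.8e-08 by edgeR). Neither gene overlapped between the cells. In all, 9 members lay wholly above the Teff samples (4.62% of all genes) and 1 wholly below them (2.88%). Gapdh lay at 1900.2, 1568, 1577, 688 and 1122 CPM in WT tumour Tregs, against 316, 408, 198, 396 and 203 CPM in Teff (log2 fold change 2.17, adjusted p = 5.0e-07 by edgeR). Ldha lay at 1864, 1847, 1732, 1812 and 1648 CPM in WT tumour Tregs, against 656, 446, 320.1, 789 and 528 CPM in Teff (log2 fold change 1.70, adjusted p = 4.6e-05 by edgeR). No Treg value of either gene lay within the Teff range.

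Pfkp (1.94, adjusted p = 0.0033), Aldoa (1.91, 1.7e-06), Aldoc (6.78, 0.0022), Pgk1 (2.73, 8.2e-04), Pgam1 (3.16, 0.022) and Pkm (1.84, 5.3e-04, log2 fold changes, all by edgeR) were also higher in WT tumour Tregs, and the call of Pgam1 held in 10 of 20 alternative settings. Bnip3 was the 1 of 11 other hypoxia targets called, at 182, 135, 241, 2.13 and 159.8 CPM in WT tumour Tregs and 0, 20.2, 10.9, 0.864 and 9.44 CPM in Teff (log2 fold change 4.12, adjusted p = 0.031 by edgeR). That call held in 8 of 20 alternative settings, and the ds1 Treg sample lay among the Teff values. Car9 had a log2 fold change of 5.17 without passing the test (adjusted p = 0.13 by edgeR), with 58.6, 23.4, 85.6, 1.28 and 0 CPM in WT tumour Tregs and 4.08, 0, 0, 0.324 and 0 CPM in Teff. Its 3 high samples were the 3 WT samples with high melanoma markers, at 1367, 1599 and 3873 CPM. They were also the single-sorted WT samples, so melanoma markers and kind of sorting cannot be told apart here.

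Pdk1 was the 1 member lower in WT tumour Tregs than in Teff. Pdk1 (chr2:71873224-71903858) lay at 59.9, 132, 83.6, 90.9 and 96.8 CPM in WT tumour Tregs and at 369, 374, 223, 318 and 419.6 CPM in Teff, without overlap (log2 fold change -1.88, SE 0.50, adjusted p = 0.013 by edgeR). Per kilobase it made up 37.7% of the 3 Pdk genes' RNA over all tumour Tregs and 80.3% in Teff. Against the same Teff samples, WT lymph node Tregs had no called member, while 1.69% of all genes were higher and 0.102% lower. In that comparison 7 members had an unadjusted p below 0.05 (9.58% of all genes did), led by Tpi1 (log2 fold change 1.78, adjusted p = 0.052 by edgeR) and with Pfkfb4 and Pdk1 below 0 (-2.88 and -1.18).

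Per kilobase of exon, the order of abundance in tumour Tregs was Aldoa (1047 ± 208 CPM per kb), Gapdh (898 ± 219.6), Ldha (893 ± 111), Pkm (342 ± 144), Tpi1 (302 ± 95.4), Pgk1 (238 ± 54.7), Gpi1 (168 ± 55.8) and Bnip3 (76.8 ± 32.7; SD, n = 18). The means of Aldoa, Gapdh and Ldha differed by less than the SD of Aldoa, and those of Pkm, Tpi1 and Pgk1 by less than the SD of Pkm. The least abundant members were P4ha2, Adm, Pdk2 and Eno2, all below 1 CPM per kb on average.

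Genes around the pathway were followed in lists. Of 30 tested oxygen sensors and other hypoxia targets outside the 35, 10 were higher in tumour Tregs and none lower (5.84% and 5.37% of all genes were), with a median log2 fold change of 0.63. They were Hif1a, which encodes the HIF-1 alpha subunit (1249 ± 272 CPM in tumour Tregs, 268 ± 100 CPM in lymph node Tregs, log2 fold change 2.22, adjusted p = 3.7e-15 by edgeR), the prolyl hydroxylase Egln3, the lipid droplet protein Hilpda, Bhlhe40, Mif, Stc2, Fam162a, Mxi1, Ak4 and Higd1a. Of 18 neighbouring genes of glucose and lactate handling 5 were higher: the glucose transporter Slc2a1 (97.3 ± 34.7 CPM in tumour Tregs, 24.7 ± 18.8 CPM in lymph node Tregs), the lactate exporter Slc16a3 (26.8 ± 10.9 CPM in tumour Tregs, 2.62 ± 4.43 CPM in lymph node Tregs), Pgam2, Hk3 and Pgm2 (median of the list 0.59).

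None of 7 pentose phosphate genes (median log2 fold change 0.15), 23 pyruvate dehydrogenase and citrate cycle genes (-0.19), 5 serine synthesis genes (0.04) or 3 gluconeogenesis genes (-0.72) was called in either direction between tissues, where 5.84% of all genes were higher and 5.37% lower. In WT tumour Tregs against Teff, 4.1% of all genes were higher and 1.61% lower. There 3 of the 30 hypoxia genes were higher, as was 1 of the 18 neighbours, a share near that of all genes. None of the other 4 lists' genes was called in that comparison.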

How the data were processed

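The authors deposited raw read counts per gene symbol for 45 libraries, for which the submitters' processing notes name STAR, featureCounts and the build mm10, and a second table of log2 values (normalized and filtered, 10832 genes, limma named in the same notes). Per the labels' protocols, cDNA was made with a SMARTer ultra-low-input kit and libraries with Nextera XT for a NextSeq 500. Tool versions, annotation, strand setting and multimapping were not given in the sources used here, so near-identical, overlapping and antisense genes are uncertain. The log2 values served only in one alternative and hold 32 of the 35 members (not Eno1, P4ha2 or Adm).

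The counts were fitted in edgeR 4.0.16 (R 4.3.3): TMM, filterByExpr by group (14668 of 23420 genes), robust quasi-likelihood fit of all 41 samples, no covariates, Benjamini-Hochberg within each comparison, threshold 0.05. The limit for summing library pairs was a chi-square per degree of freedom under 5. SE is the log2 fold change divided by the square root of F. Means, SDs, isozyme shares and per-kilobase levels are of TMM-scaled CPM, with exon lengths of GENCODE vM21 for mm10. The fit was tested on simulated data, the outcome of which is not reported here. Replicate numbers were treated as pairing samples where deviations from the group means correlated at r above 0.1 in every pair, as was found in the lymph node for HetNrp1def against HetWT (lowest r 0.143), HetNrp1def against WT (0.117) and HetWT against WT (0.117). That pairing comes from the values. Alternatives were DESeq2 1.42.0, RLE scaling, no filter, all 45 libraries, a replicate block, each kind of sorting alone, ds2 left out, limma 3.58.1 on the deposited log2 values, and leaving out each sample.

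All 35 members are accounted for, fold changes are given with their test for called members, and other genes are named from lists by call. The members and lists were chosen with earlier results of these data known. Intervals of replicates cover the spread of samples, and the floor of 3 counts covers counting error only. The proteins of the lactate dehydrogenase and enolase isozymes were not used here.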

Additional observations from a re-analysis of the deposited data

Results flagged for a closer look

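Within groups of 4 or 5 samples, a sample stood far from the others of its group in 31 of 206 sets of values tested by Dixon's criterion on log2 CPM, against about 5% of sets flagged by chance. Of these samples 21 were ds1 and 2 were ds2. All values below are CPM, with the range of the rest of the group.

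In tumour Tregs the WT ds1 sample was low for Ldhb at 1.28 (others 46.7 to 79.3), Bnip3 at 2.13 (135 to 241) and Ero1l at 14.5 (140.5 to 239.9), and N ds1 was low for Aldoc at 0.636 (28.8 to 67.8). Vegfa was at 0 in HetNrp1def ds2 (6.45 to 10.6) and at 19.7 in HetWT replicate 4 (0 to 0.177). Adm was at 0 in HetNrp1def replicate 2 (2.95 to 5.61) and at 1.10 in N replicate 4 (others 0).

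In WT lymph node Tregs ds1 was high for Aldoa at 794 (329 to 421) and Ldha at 1345 (526 to 633) and low for Ero1l at 0.317 (15.9 to 48.0). Replicate 3 of the same group was high for Tpi1 at 157 (43.8 to 62.4) and P4ha1 at 135 (72.5 to 86.3) and low for Pfkl at 3.51 (17.7 to 33.3). In N lymph node Tregs ds1 had the lowest mean log2 CPM over the 35 genes, 3.42. It was high for Ldhb at 291 (85.4 to 93.8), P4ha1 at 247 (61.8 to 92.1) and Car9 at 0.116 (others 0), the last from 1 count.

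In HetNrp1def lymph node Tregs ds1 was low for Pfkp at 34.2 (112 to 124), Ldhb at 2.03 (64.1 to 87.6) and P4ha1 at 32.7 (94.5 to 104), ds2 was high for Pkm at 392 (178 to 186), and replicate 4 was high for Ero1l at 45.9 (32.4 to 34.4). In HetWT lymph node Tregs ds1 was low for Pgk1 at 1.15 (111 to 166), Eno3 at 2.30 (41.8 to 65.6) and Ankrd37 at 0.691 (12.3 to 17.5). The same sample was high for Vegfa at 1.38 (0 to 0.0675) and Adm at 0.691 (others 0), from 6 and 3 counts. In effector T cells ds1 was low for Pfkp at 10.3 (77.5 to 153) and Ldhb at 4.64 (42.3 to 53.5), and replicate 3 was low for Tpi1 at 2.66 (21.1 to 34.6).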

How the results depend on the processing

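Counts of members called, in either direction, were 21 between tissues over the 4 genotypes, 4 in N, 5 in HetNrp1def, 3 in HetWT and 6 in WT, 12 for WT tumour Tregs over effector T cells and 0 for WT lymph node Tregs over effector T cells. DESeq2 called 12 in N, 9 in HetNrp1def, 5 in HetWT, 17 in WT and 2 in WT lymph node Tregs over effector T cells. Limma on the deposited log2 values called 0 in HetNrp1def, HetWT and WT and 0 in WT tumour Tregs over effector T cells, where it also turned the log2 fold change of Bnip3 to -0.25. In N it kept the call of 0 of the 4 members. The 45 libraries as deposited gave 9 in HetNrp1def, 7 in HetWT and 1 in WT lymph node Tregs over effector T cells. Single-sorted samples alone gave 7 in HetWT, 10 in WT and 3 in WT lymph node Tregs over effector T cells. Double-sorted samples alone gave 4 over the 4 genotypes and 0 in N, HetNrp1def, HetWT, WT and WT tumour Tregs over effector T cells (1 tumour against 2 lymph node samples in HetNrp1def and HetWT, 2 against 2 elsewhere, so these 0 counts say nothing on stability), with log2 fold changes of -0.64 for Vegfa and -0.81 for Car9 over the 4 genotypes. Without any ds2 library N had 2. With the 8 tumour samples of high melanoma markers left out, added after seeing the data, the counts were 12 over the 4 genotypes, 2 in N, 2 in HetNrp1def, 1 in WT and 5 against effector T cells. The cause of these shifts was not tested, beyond the fewer samples that some settings leave.

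A replicate block gave 22 over the 4 genotypes, 7 in N, 6 in HetNrp1def, 6 in HetWT, 12 in WT and 14 for WT tumour Tregs over effector T cells, though the numbers there pair samples by number alone. In the 3 lymph node comparisons where they pair, the block changed no call. Leaving out 1 sample at a time gave 18 to 21 over the 4 genotypes, 2 to 4 in N, 3 to 5 in HetNrp1def, 3 to 4 in HetWT, 4 to 7 in WT, 10 to 14 against effector T cells and 0 to 1 for WT lymph node Tregs against them (1 without effector replicate 4 or ds1, or lymph node ds1). RLE scaling shifted the median of all genes by over 0.1 in 8 comparisons, from -0.12 to 0.18. Of 1549 values of the 51 called member results under these settings, 1343 kept direction and call, 203 lost the call and 3 reversed, those named above. Aldoa, Tpi1, Pkm and Bnip3 kept their call over the 4 genotypes in 46 of 46 settings. Adm, Vegfa and Car9 had a median of 3.51 CPM or less in tumour Tregs.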
